A study of Rattus norvegicus with 24 samples.

Results

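Sema3c, a secreted guidance protein of the class 3 semaphorins, and 8 genes of the same signalling system were followed through the CA1 field of the hippocampus in young and aged rats. The 9 genes are the ligands Sema3c, Sema3a, Sema3e and Sema3f, the neuropilin coreceptors Nrp1 and Nrp2, and the plexin receptors Plxna1, Plxna2 and Plxnd1. They were taken by name, and Sema3c was chosen by its fall with age in these same arrays, so its age difference is given as a description and carries no test. The array holds 16 probe sets with 1 of these symbols, among 31099 probe sets in all. A probe set counted as measured where its log2 signal was over 4 in at least 6 arrays, which 9 of the 16 met, and 7 of the 9 genes were measured among 9076 genes tested.

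Total RNA came from CA1 dissected from male Long-Evans rats, 1 array per biological replicate, with no treatment in any group. The 9 young rats were 6 months old, and the 14 aged rats were 24 to 26 months old. All had been trained in the Morris water maze, a test of spatial memory: 6 aged rats that performed within the range of the young are called unimpaired, and 8 that performed worse are called impaired, so these groups differ by a behavioural score and not by a treatment. A column for 1 further aged unimpaired array was blank and left aside. The labels name no unimpaired replicate 6, and the table places young replicate 9 among the unimpaired columns, where it was kept as young.

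Class 3 semaphorins are secreted and bind a neuropilin, which has almost no signalling domain of its own, so a plexin in the same complex carries the signal into the cell. Sema3e is the exception, as it can bind Plxnd1 directly. The plexin tail acts on small GTPases and on collapsin response mediator proteins, which changes the cytoskeleton of axons, dendrites and spines. In the adult hippocampus these proteins are known for roles in the placing of synapses and in blood vessels.

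The median log2 signal of an array lay between 4.201 and 4.281. Each array's median correlation with the rest was 0.990 to 0.994. The most alike pair, Unimpaired 1 and Unimpaired 7, had a correlation of 0.997 across genes. Of 10 listed markers of CA1 pyramidal neurons 8 were measured, and their mean log2 signal lay between 11.16 and 11.54 in every array. None of these 8 rose or fell with age by limma (0 of 8, Benjamini-Hochberg adjusted), and 1 of 8 was at an unadjusted p under 0.05, beside 15.3% of all genes tested. In impaired against unimpaired none of the 8 was called either. Their median difference there was -0.12, with 5 of 8 below 0 and 3 above. At an unadjusted p under 0.05 there were 3 of 8, beside 6.93% of all genes. In aged against young CA1, where limma called 3.71% of all tested genes, 5 of 10 measured microglial markers rose (Aif1, C1qa, Tyrobp, Fcer1g and Ctss), 0 fell and 5 were not called, among them Tmem119 at -0.06 ± 0.11. Of 9 measured astrocyte markers 2 rose (Gfap and S100b) and 0 fell. Of 14 measured endothelial markers 4 fell (Slco1c1, Sox17, Sox18 and Ramp2), 0 rose and 10 were not called; 5 of the 14 had values above 0, with Vwf at 0.26 ± 0.09 (limma, Benjamini-Hochberg adjusted p = 0.104).

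Sema3c was lower in CA1 of both aged groups than in young CA1. Its single probe set gave log2 signals of 6.59, 7.75, 7.74, 7.69, 6.13, 7.13, 6.92, 7.47 and 7.66 in the young arrays 1 to 9. In the aged unimpaired arrays 1, 2, 3, 4, 5 and 7 the signals were 6.44, 5.55, 5.18, 5.71, 5.98 and 6.00. In the aged impaired arrays 1 to 8 they were 5.43, 6.49, 5.55, 5.46, 5.99, 5.99, 5.35 and 4.25. The lowest young array, Young 5, lay below Unimpaired 1 and Impaired 2, and the other 12 of 14 aged arrays lay below every young one. In aged against young 3.71% of all tested genes were called.

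The group means were 7.23 ± 0.58 (SD, n = 9) in young, 5.81 ± 0.43 (SD, n = 6) in unimpaired and 5.56 ± 0.66 (SD, n = 8) in impaired CA1. Aged minus young was -1.56 ± 0.23 (SE) on the log2 scale, a 2.95-fold lower signal. The difference from young was -1.67 ± 0.26 in impaired and -1.42 ± 0.28 in unimpaired rats, and both share the young arrays. Leaving out any 1 array kept aged minus young between -1.70 and -1.45, and without Young 9 it was -1.51. In RNA from whole CA1, fewer cells with Sema3c and less Sema3c RNA per cell cannot be told apart.

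Between the aged groups, Sema3c was not called as different. Impaired minus unimpaired was -0.25 ± 0.29, with a 95% interval from -0.85 to 0.36 (limma, Benjamini-Hochberg adjusted p = 0.907). The interval leaves room for a difference of either sign. The value rests in part on Impaired 8, the lowest array, without which it was -0.06, and it was 0.0084 without the 3 arrays least like the others (Young 5, Impaired 7 and Impaired 8). In this comparison limma called 0 of 9076 genes (0%), with 629 at an unadjusted p under 0.05.

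**Figure D1:**
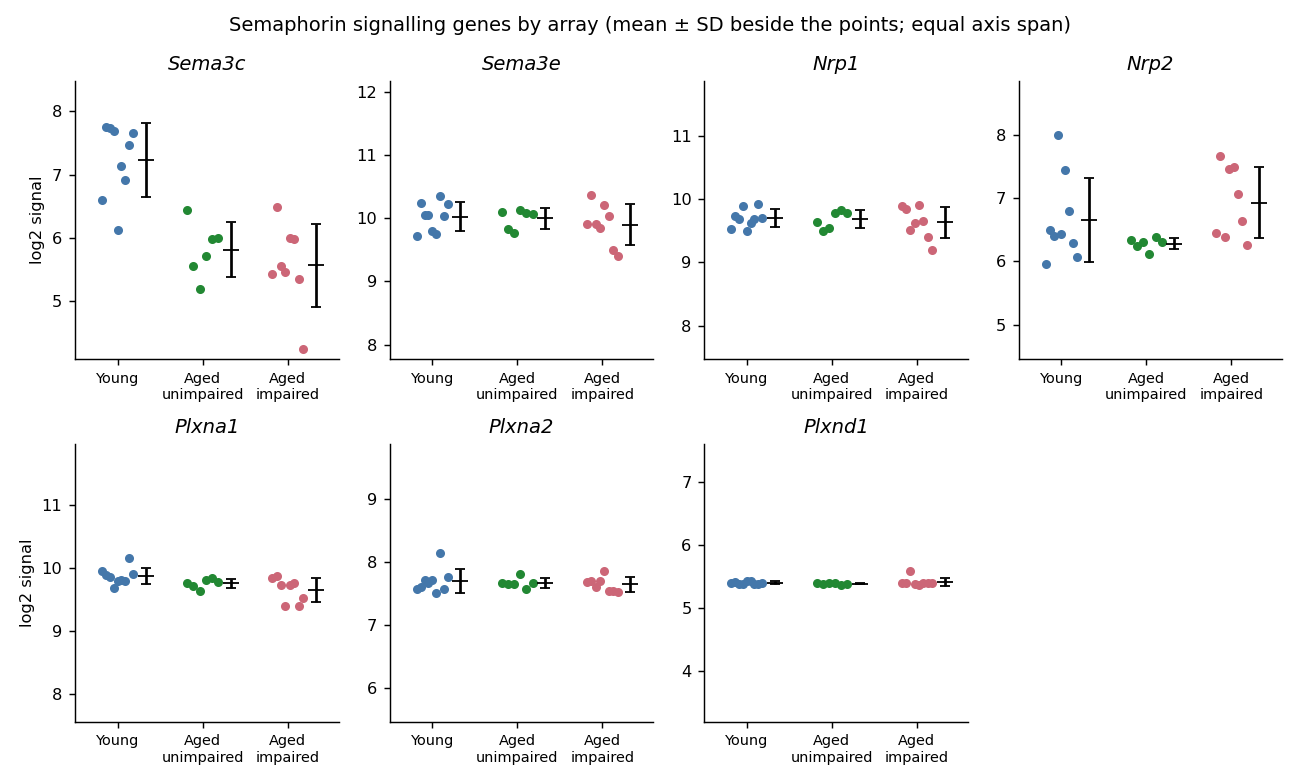
Log2 signal (vertical axis) of the 7 measured genes in each array of the young, aged unimpaired and aged impaired groups; each point is 1 array, the bar beside the points is the mean ± SD, and every panel spans the same range of log2 units. Sema3c drops from a mean of 7.23 in young to 5.81 and 5.56 in the aged groups, and the 3 group means of each other gene lie within 0.65 of each other.

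None of the 6 measured relatives was called by limma in any of the 4 comparisons. At an unadjusted p under 0.05 there was 1 in aged against young and 1 in impaired against young (Plxna1 in both), 1 in impaired against unimpaired (Nrp2) and 0 in unimpaired against young. Over all 9076 genes the share at an unadjusted p under 0.05 was 15.3% in aged against young, 16.5% in impaired against young, 9.84% in unimpaired against young and 6.93% in impaired against unimpaired. The shares called after adjustment were 3.71%, 3.80%, 0.760% and 0% in the same order. At those shares a count of 0 among 6 genes is near the background. The intervals of the relatives say more than the count: the widest 95% interval for aged minus young, that of Nrp2, ran from -0.45 to 0.44. The Sema3c estimate was -1.56, the difference by which Sema3c was chosen, so its distance from the relatives is a description.

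Among the other ligands, Sema3e, which repels growing axons and vessels, was the only one measured. Its log2 signal was 9.72, 10.24, 10.05, 10.05, 9.79, 9.76, 10.35, 10.04 and 10.23 in the young arrays. It ran from 9.76 to 10.13 in unimpaired CA1 (median 10.08) and from 9.40 to 10.36 in impaired CA1 (median 9.90). The groups overlap widely, with the 2 lowest values in Impaired 7 and Impaired 8. Aged minus young was -0.09 ± 0.10 (95% interval -0.30 to 0.13; limma, Benjamini-Hochberg adjusted p = 0.770).

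Sema3a, the ligand that collapses growth cones through Nrp1, and Sema3f, which acts through Nrp2, were dim. The Sema3a probe set lay between 2.64 and 2.78 in all 23 arrays. The Sema3f probe sets lay between 1.97 and 2.05 and between 3.56 and 3.69. None reached 4 in any array, so no level or change is given for these ligands.

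Nrp1, the coreceptor shared by Sema3a and Sema3c, showed no called change with age. In young arrays its brighter probe set gave 9.53, 9.74, 9.69, 9.89, 9.50, 9.62, 9.69, 9.92 and 9.71. It ran from 9.49 to 9.84 in unimpaired and from 9.19 to 9.90 in impaired CA1. The groups overlap, and aged minus young was -0.05 ± 0.08 (95% interval -0.20 to 0.11; limma, Benjamini-Hochberg adjusted p = 0.858). The second Nrp1 probe set gave -0.18 ± 0.14 (adjusted p = 0.631 by limma over 16201 probe sets).

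Nrp2, the coreceptor of Sema3f and Sema3c, spread most among the relatives in its brighter probe set. The other Nrp2 probe set was dim, between 2.17 and 2.25 in all 23 arrays. The log2 signal of the brighter one in young arrays 1 to 9 was 5.97, 6.50, 6.41, 8.00, 6.44, 7.45, 6.80, 6.29 and 6.08. In unimpaired arrays it was 6.34, 6.24, 6.30, 6.12, 6.39 and 6.30, and in impaired arrays 6.45, 7.67, 6.39, 7.46, 7.50, 7.06, 6.64 and 6.26. The unimpaired arrays sit close together at 6.28 ± 0.09 (SD, n = 6), while 7 of 8 impaired arrays lie above all of them and the young arrays fall on both sides. In this comparison 0% of tested genes were called.

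Impaired minus unimpaired was 0.65 ± 0.27 for Nrp2 (95% interval 0.09 to 1.21). With an unadjusted p of 0.0258 and a Benjamini-Hochberg adjusted p of 0.661 by limma, the difference was not called. Between aged and young rats it differed by -0.01 ± 0.21 (adjusted p = 0.992). Markers of neighbouring hippocampal fields varied with Nrp2 across arrays. The mean of 6 measured of 11 listed CA3 and CA2 genes correlated with it at r = 0.837 and Spearman coefficient 0.835 (group means removed, n = 23, permutation adjusted p = 0.00042 for each over 14 relations). The mean of 4 measured of 10 listed dentate granule genes gave r = 0.781 and Spearman coefficient 0.701 (permutation adjusted p = 0.00042 and 0.00077). Without the 2 arrays farthest from the median of each list, r was 0.819 and 0.646.

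The level of the CA3 and CA2 list ran from 7.39 to 8.42 in young, 7.53 to 7.80 in unimpaired and 7.38 to 8.83 in impaired arrays. For the dentate list the ranges were 8.18 to 8.99, 7.94 to 8.55 and 7.97 to 8.74. In impaired minus unimpaired the median difference was 0.156 for the CA3 and CA2 genes (5 of 6 above 0). It was 0.187 for the dentate genes (3 of 4 above 0) and -0.12 for the CA1 pyramidal genes (5 of 8 below 0). Limma called none of these genes there. Prss35, Iyd, Cacng5, Ccdc3 and St18 of the first list and Dsp, Tdo2, Il16 and Pdzd2 of the second were dim. The part of neighbouring tissue in the Nrp2 values was not tested. These relations were computed after the data were seen.

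Among the 3 plexins of the set (Plxna1, Plxna2 and Plxnd1), Plxna1, a partner of neuropilins, had the smallest p in aged against young CA1. The other Plxna1 probe sets were dim, between 1.78 and 1.83 and between 1.87 and 1.93. In the measured probe set of Plxna1 the young arrays gave 9.95, 9.88, 9.86, 9.68, 9.80, 9.80, 9.79, 10.15 and 9.91. The unimpaired arrays lay between 9.63 and 9.84 and the impaired arrays between 9.40 and 9.87. 4 of 14 aged arrays were below every young one, and the rest overlap with the young. Aged minus young was -0.17 ± 0.06 (limma, Benjamini-Hochberg adjusted p = 0.141) and impaired minus young -0.21 ± 0.07 (adjusted p = 0.0917). With each array centred on its median these became -0.19 (adjusted p = 0.0431 by limma) and -0.23 (adjusted p = 0.0309). After quantile normalization they were -0.19 (adjusted p = 0.0493 by limma) and -0.22 (adjusted p = 0.0369), so the call on Plxna1 turns on the scaling. The scaling also moved the count of genes called lower over all 9076. In aged against young it went from 57 to 136 with centring and 143 with quantile normalization. In impaired against young it went from 65 to 149 and 154. Over all alternatives the limma adjusted p of Plxna1 ran from 0.0431 to 0.338 for aged and from 0.0309 to 0.228 for impaired against young.

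Plxna2, another neuropilin partner, did not separate the groups. It ran from 7.51 to 8.13 in young, 7.56 to 7.80 in unimpaired and 7.52 to 7.86 in impaired CA1. The age difference was -0.04 ± 0.06 (limma, Benjamini-Hochberg adjusted p = 0.814). Its second measured probe set differed in sign, at 0.09 ± 0.06 (adjusted p = 0.546 by limma over 16201 probe sets). A further Plxna2 probe set was dim, between 2.73 and 4.06, with 1 array over 4.

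Plxnd1, the receptor of Sema3e, passed the signal filter with an almost flat signal. Its values lay between 5.37 and 5.43 in 22 arrays and at 5.58 in Impaired 3. Only 0.772% of measured probe sets varied as little over the 23 arrays. Its small deviations followed the median of the 7 dim probe sets of the other members (r = 0.939 over the 22 arrays without Impaired 3, a description). With Impaired 3 the correlation was 0.151, and against the mean of the dim probe sets it was 0.179 without Impaired 3 and 0.0896 with it. The median and the omitted array were chosen after these values were seen. The Plxnd1 difference between aged and young was -0.00 ± 0.03 (limma, Benjamini-Hochberg adjusted p = 0.987). Whether this probe set follows Plxnd1 RNA was not tested.

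**Figure D2:**
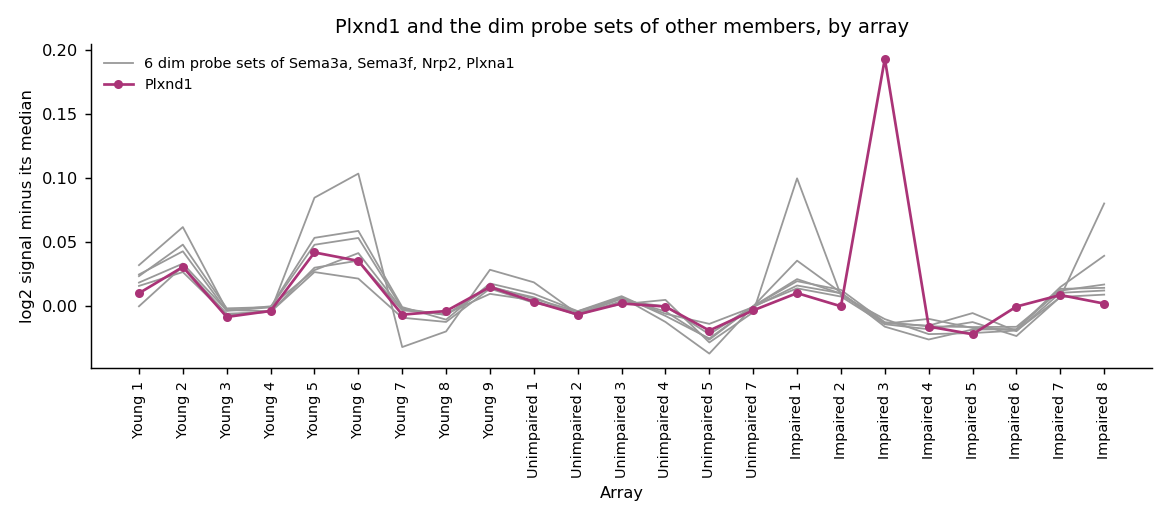
Log2 signal minus the probe set's own median (vertical axis) for Plxnd1 and 6 dim probe sets of Sema3a, Sema3f, Nrp2 and Plxna1 in each array (horizontal axis). The Plxnd1 line runs among the dim probe sets except in Impaired 3, where its signal is 5.58; the dim Plxna2 probe set is not drawn.

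To ask whether the relatives move with Sema3c from animal to animal, the mean of each group was removed and the deviations of the 23 arrays were compared. Sema3e and Nrp1 followed Sema3c. For Sema3e, r was 0.765 and Spearman coefficient 0.697 (permutation within groups, Benjamini-Hochberg adjusted p = 0.00087 and 0.00354 over 6 relatives). For Nrp1, r was 0.721 and Spearman coefficient 0.617 (permutation adjusted p = 0.00087 and 0.00789). Arrays with a Sema3c signal above their group mean thus tended to have higher signals for Sema3e and Nrp1, although neither was called as different with age. Many other genes leaned the same way, with a median r of 0.234 over 9075 genes. Sema3c also tended to be higher where a measure of RNA integrity was poorer, as given below.

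Both relations were positive within each group. Sema3e gave r = 0.563 in young, 0.796 in unimpaired and 0.913 in impaired arrays (unadjusted permutation p = 0.114, 0.0463 and 0.00017). Nrp1 gave r = 0.757, 0.474 and 0.794 (unadjusted permutation p = 0.0196, 0.343 and 0.0158). Young 5 and Impaired 8 were farthest from the median of Sema3c. Without them r fell to 0.682 for Sema3e (permutation p = 0.00148) and to 0.544 for Nrp1 (permutation p = 0.0161). The Sema3e relation stayed past the threshold in every alternative run, with r between 0.672 and 0.853. That of Nrp1 lost its call without the 3 arrays least like the others (Young 5, Impaired 7 and Impaired 8), at r = 0.503 (permutation adjusted p = 0.0986). It also lost it with the second Nrp1 probe set, at r = 0.467 (permutation adjusted p = 0.136), and over all alternatives this adjusted p ran from 0.00045 to 0.136.

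The receptors other than Nrp1 were not called. For Nrp2 r was 0.426 (Spearman coefficient 0.362, permutation adjusted p = 0.137 and 0.170). For Plxna1 it was 0.397 (Spearman coefficient 0.373, permutation adjusted p = 0.149 and 0.170). Plxna2 gave 0.08 (Spearman coefficient 0.187, permutation adjusted p = 0.750 and 0.459) and Plxnd1 -0.11 (Spearman coefficient -0.15, permutation adjusted p = 0.674 and 0.459). Among the relatives themselves, 15 pairs were compared. Sema3e and Nrp1 varied together (r = 0.765, Spearman coefficient 0.671, permutation adjusted p = 0.0039 and 0.0240; r = 0.668 without Impaired 2 and Impaired 8). Sema3e and Plxna2 did so as well (r = 0.577, Spearman coefficient 0.602, permutation adjusted p = 0.0226 and 0.0377; r = 0.589 without the same arrays). No other pair passed on Pearson's r; Nrp1 and Plxna1 passed on the Spearman coefficient only (r = 0.560, Spearman coefficient 0.603, permutation adjusted p = 0.0970 and 0.0377).

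**Figure D3:**
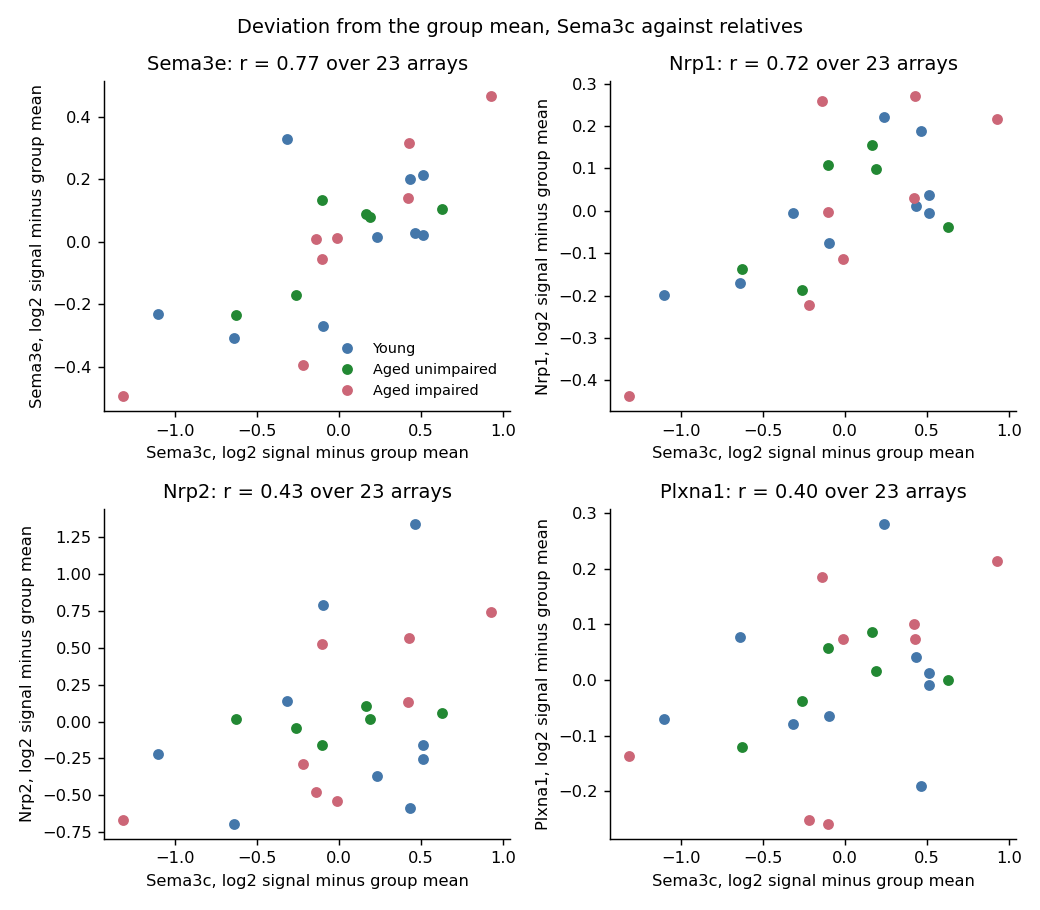
Deviation of Sema3c from its group mean (horizontal axis, log2 signal) against the deviation of Sema3e, Nrp1, Nrp2 and Plxna1 (vertical axes, log2 signal, each with its own scale); each point is 1 of 23 arrays, coloured by group. The points rise together for Sema3e (r = 0.77) and Nrp1 (r = 0.72) and scatter more for Nrp2 and Plxna1.

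Many genes rose and fell with Sema3c across these arrays, since the median r over 9075 other genes was 0.234. Against that background Sema3e ranked 16 from the top and Nrp1 ranked 49, while Nrp2 ranked 2023 and Plxna1 2402. The 5 genes most like Sema3c by this measure over the 23 arrays were Kcnip2 (r = 0.817), a subunit of A-type potassium channels, Rufy1 (0.816), Smim20 (0.807), Rexo2 (0.806) and Usp1 (0.804). The 5 least like it were Csnk1e (-0.681), Spmap2 (-0.680), Syt7 (-0.679), Uros (-0.676) and Zrsr2-ps1 (-0.670). None of these 10 was called in any comparison by limma; Kcnip2, for one, differed by -0.05 ± 0.08 between aged and young (Benjamini-Hochberg adjusted p = 0.850).

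**Figure D4:**
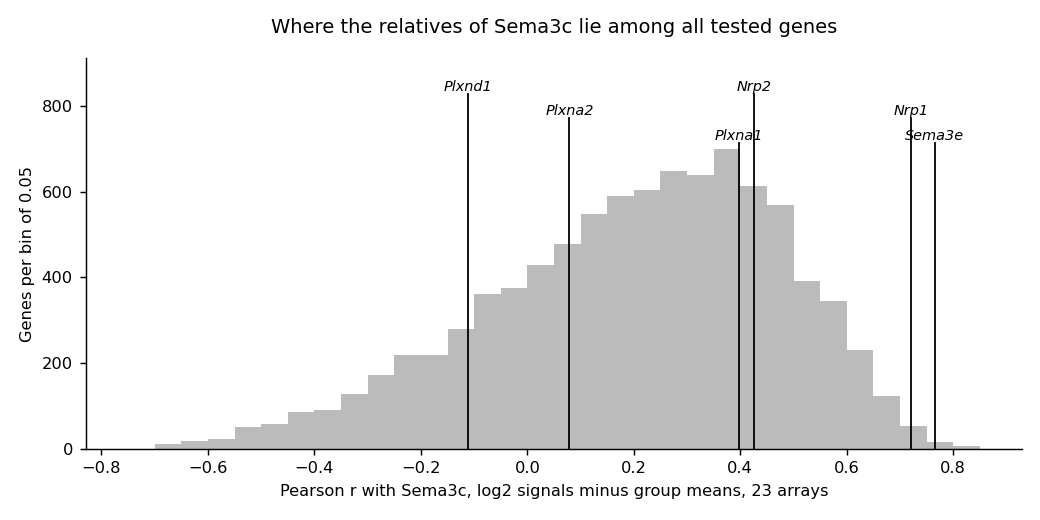
Number of genes per bin of 0.05 (vertical axis) by their Pearson r with Sema3c after group means were removed (horizontal axis), over 9075 genes and 23 arrays; lines mark the 6 measured relatives. Sema3e and Nrp1 stand in the right tail at 0.765 and 0.721, and the other relatives lie within the bulk.

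Array quality moved with Sema3c in part. The signal of control probe sets at the 3 prime end of transcripts minus that at the 5 prime end grows as RNA degrades. This gap correlated with Sema3c at r = 0.551 (permutation adjusted p = 0.0286 over 2 measures) and at Spearman coefficient 0.346 (permutation adjusted p = 0.192). Sema3c thus tended to be higher in arrays with a larger gap, though r was 0.295 without Young 5 and Impaired 8. With that measure and the median correlation with other arrays removed, r with Sema3c was 0.822 for Sema3e and 0.635 for Nrp1. The CA3 and CA2 marker list correlated with Sema3c at r = 0.543 and Spearman coefficient 0.465 (permutation adjusted p = 0.123 for r over 13 marker lists, and 0.0492 over the 14 relations of members with the CA3 and CA2 and dentate lists). Over those 14 relations the Spearman coefficient did not pass (permutation adjusted p = 0.0973). By group r was 0.274 in young, -0.330 in unimpaired and 0.870 in impaired arrays. The same list gave r = 0.576 with Sema3e and 0.565 with Nrp1 (permutation adjusted p = 0.0492 each), and without 2 arrays 0.376 and 0.428. Their Spearman coefficients were 0.607 and 0.515 (permutation adjusted p = 0.0368 and 0.0920). The part of these measures in the shared variation of Sema3c, Sema3e and Nrp1 beyond the values given was not tested.

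Because Sema3e was not called with age yet followed Sema3c between animals, the age difference of Sema3c was also read at equal Sema3e. It was -1.41 ± 0.16, against -1.56 ± 0.24 in the same model without Sema3e, and the residual SD was 0.374 instead of 0.573. This is a description, added after the data were seen, of the difference by which Sema3c was chosen. Sema3e was taken for its relation to Sema3c in the same arrays, so the smaller residual SD restates that relation.

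Other cell types that could lie in the dissected tissue were followed by their markers. Over the 13 marker lists none passed in its relation to Sema3c (permutation adjusted p of 0.123 or more for r). Of 15 listed genes of meninges and fibroblasts 5 were measured. Dcn fell by 0.71 ± 0.15 (limma, Benjamini-Hochberg adjusted p = 0.00857) and Igf2 fell by 0.84 ± 0.16 (adjusted p = 0.00249), while Ptgds rose by 0.56 ± 0.10 (adjusted p = 0.000929). The collagens Col1a1, Col1a2 and Col3a1 were among the 10 dim ones. The mean of the measured 5 ran from 7.28 to 8.44 in young, 7.04 to 7.46 in unimpaired and 7.15 to 7.73 in impaired arrays. With group means removed it correlated with Sema3c at r = 0.474 and Spearman coefficient 0.508 (permutation adjusted p = 0.123 and 0.231 over 13 lists; r = 0.419 without Young 5 and Impaired 8). The endothelial list ran from 7.53 to 7.90, 7.41 to 7.59 and 7.32 to 7.83 in the same groups, with r = 0.366 and Spearman coefficient 0.237 (permutation adjusted p = 0.339 and 0.592) and -0.06 without those 2 arrays. The dentate list gave r = 0.502 and Spearman coefficient 0.345 with Sema3c (permutation adjusted p = 0.123 and 0.495 over 13 lists). The interneuron list gave r = -0.444 and Spearman coefficient -0.278 (permutation adjusted p = 0.170 and 0.587). Without the same 2 arrays r was 0.285 and -0.131. The part of any of these cell types in the fall of Sema3c was not tested.

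Sema3c and Sema3e lie near each other on rat chromosome 4, with 4 protein-coding genes between them in the RefSeq order. Cacna2d1 and Pclo were the measured ones, with r of 0.516 and -0.10 with Sema3c and age differences of -0.05 ± 0.09 and 0.11 ± 0.20 (limma, Benjamini-Hochberg adjusted p = 0.848 and 0.870). Sema3a and Sema3d, both dim, follow on the same chromosome. RefSeq promoters of build GRCr8, 250 bases before to 50 after the annotated start, were found for 6 of the 9 genes. They are shown for the 3 that varied together, 5′ to 3′ on the gene's strand, with each CG pair in capitals. The Sema3c window is chr4:18699578-18699877 (minus strand), that of Sema3e chr4:21510325-21510624 (minus strand) and that of Nrp1 chr19:73256307-73256606 (plus strand).
Sema3c: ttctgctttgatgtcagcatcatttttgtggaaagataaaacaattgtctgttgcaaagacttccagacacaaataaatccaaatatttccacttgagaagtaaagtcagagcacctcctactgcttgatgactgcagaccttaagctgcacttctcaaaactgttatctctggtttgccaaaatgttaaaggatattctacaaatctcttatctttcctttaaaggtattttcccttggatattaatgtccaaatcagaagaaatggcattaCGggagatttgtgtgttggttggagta
Sema3e: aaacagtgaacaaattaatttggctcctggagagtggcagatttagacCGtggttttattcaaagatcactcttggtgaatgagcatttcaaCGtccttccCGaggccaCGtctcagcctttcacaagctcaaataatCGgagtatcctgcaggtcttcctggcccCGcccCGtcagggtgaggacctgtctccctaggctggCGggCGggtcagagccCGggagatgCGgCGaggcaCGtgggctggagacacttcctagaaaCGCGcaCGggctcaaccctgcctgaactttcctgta
Nrp1: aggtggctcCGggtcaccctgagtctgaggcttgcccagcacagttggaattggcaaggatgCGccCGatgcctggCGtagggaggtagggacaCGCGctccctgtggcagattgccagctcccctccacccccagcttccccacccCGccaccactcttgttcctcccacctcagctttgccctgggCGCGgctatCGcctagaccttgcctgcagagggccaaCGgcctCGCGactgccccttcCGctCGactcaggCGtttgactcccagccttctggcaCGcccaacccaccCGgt

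The Sema3c window holds 1 CG pair, and 13.6% of 33469 promoter windows of the same length hold as few. The windows of Sema3e and Nrp1 hold 16 and 18, above the median of 7. The G and C content of the windows of Sema3c, Sema3e and Nrp1 was 36.3%, 55.3% and 66.3%. On both strands 4 motifs were searched, none of which contains another: GGGCGG (in 33.1% of all windows), TATAAA (14.2%), CACGTG (6.42%) and CCAAT (37.5%). Sema3e holds GGGCGG and CACGTG, Nrp1 holds CCAAT, and these letters are not in the Sema3c window. No motif was common to the 3.

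The 8 lists of the wider pathway held 81 measured genes besides Sema3c, the other members included. Limma called 1 of them (1.23%) in aged against young, 3 (3.70%) in impaired against young and 0 in unimpaired against young, beside 3.71%, 3.80% and 0.760% of all genes tested. At an unadjusted p under 0.05 there were 16 (19.8%), 12 (14.8%) and 12 (14.8%), beside 15.3%, 16.5% and 9.84% of all genes. Of 7 secreted class 3 semaphorins 3 were measured, Sema3c, Sema3e and Sema3g, and the latter pair was not called. Sema3e differed by -0.09 ± 0.10 in aged minus young. Sema3g, a vascular semaphorin, was at 7.21 ± 0.29 (SD, n = 9) in young, 6.73 ± 0.38 (SD, n = 6) in unimpaired and 7.14 ± 0.32 (SD, n = 8) in impaired CA1, and its aged minus young value was -0.25 ± 0.13 (limma, Benjamini-Hochberg adjusted p = 0.377). Of 9 measured membrane-bound semaphorins 0 rose and 0 fell by limma (median -0.08, against 0.01 over all genes tested; 3 at an unadjusted p under 0.05). Sema4d, a ligand of B-type plexins, was at -0.23 ± 0.08 (limma adjusted p = 0.170), and Sema6a at -0.13 ± 0.05 (adjusted p = 0.202).

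**Figure D5:**
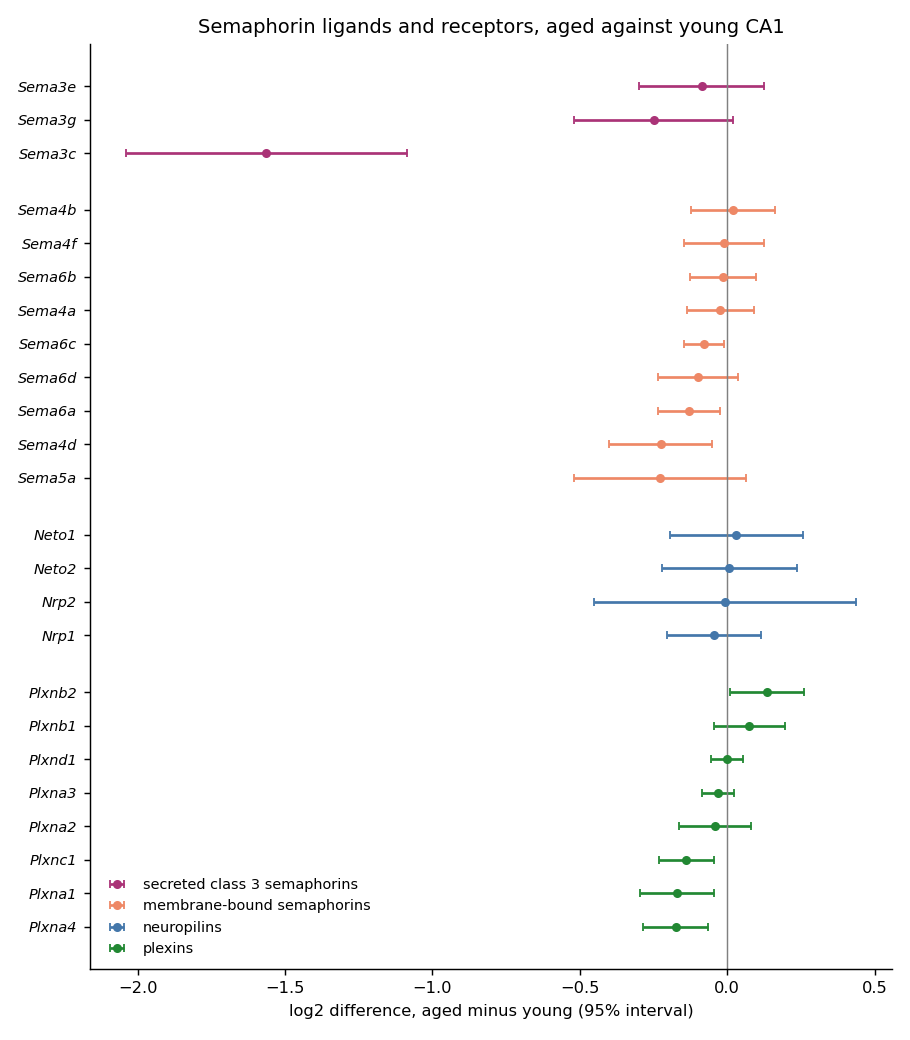
Aged minus young difference in log2 signal (horizontal axis, points with 95% intervals from limma) for the measured semaphorins, neuropilins and plexins, grouped and coloured by family. Sema3c, chosen by this difference, stands at -1.56, and the next lowest, Sema3g, at -0.25.

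None of the 4 neuropilin-family genes was called by limma (median -0.00; 0 at an unadjusted p under 0.05), and Neto1 and Neto2, which carry similar domains and accompany glutamate receptors, differed by 0.03 ± 0.11 and 0.01 ± 0.11. Of 8 measured plexins 0 rose and 0 fell by limma (median -0.04), beside 3.71% of all genes called. At an unadjusted p under 0.05 there were 4 of 8, beside 15.3% of all genes tested. Plxna1, Plxna4 and Plxnc1 were lower and Plxnb2 was higher. Plxna4, the receptor partner for Sema3a, was at -0.17 ± 0.05 (limma, Benjamini-Hochberg adjusted p = 0.0743), Plxnc1, the receptor of Sema7a, at -0.14 ± 0.05 (adjusted p = 0.0967), and Plxnb2 at 0.14 ± 0.06 (adjusted p = 0.271).

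Among the enzymes that cut semaphorins and other secreted proteins, Pcsk6, a proprotein convertase, rose (1 of 4 measured). Over all genes tested limma called 3.71% in aged against young and 3.80% in impaired against young. It was 7.67 ± 0.10 (SD, n = 9) in young, 8.06 ± 0.30 (SD, n = 6) in unimpaired and 8.07 ± 0.29 (SD, n = 8) in impaired CA1. Aged minus young was 0.39 ± 0.10 (limma, Benjamini-Hochberg adjusted p = 0.0195). Impaired minus young was 0.40 ± 0.11 (adjusted p = 0.0417 by limma), a call lost without any one of Young 2, 3, 4, 5, 7, 8 and 9 or Impaired 2, 3, 4, 5, 6 and 7 (adjusted p up to 0.0935). Over all alternatives its limma adjusted p ran from 0.00894 to 0.121, and that of aged against young from 0.00552 to 0.0883. Furin, the convertase best known for class 3 semaphorins, was at 0.08 ± 0.07 (adjusted p = 0.712).

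Of 9 measured coreceptors and other neuropilin ligands, none was called by limma in aged against young (median -0.02). Over all genes tested 3.71% were called there and 3.80% in impaired against young. At an unadjusted p under 0.05 there were 4 of 9 in aged against young, beside 15.3% of all genes. Cntn2, an axonal adhesion protein, rose in impaired against young CA1 by 0.42 ± 0.10 (limma, Benjamini-Hochberg adjusted p = 0.0142), with means of 5.27 ± 0.17 (SD, n = 9) in young, 5.37 ± 0.24 (SD, n = 6) in unimpaired and 5.69 ± 0.21 (SD, n = 8) in impaired arrays. Impaired minus unimpaired was 0.32 ± 0.11 for Cntn2 (adjusted p = 0.562). Of 26 measured intracellular effectors, none was called by limma in aged against young (median 0.01). At an unadjusted p under 0.05 there were 3 of 26, beside 15.3% of all genes. Rras, a small GTPase on which plexin tails act, rose in impaired against young CA1 by 0.52 ± 0.13 (limma, Benjamini-Hochberg adjusted p = 0.0199), with means of 4.60 ± 0.30, 4.76 ± 0.25 and 5.12 ± 0.26 (SD, n = 9, 6 and 8) in young, unimpaired and impaired arrays. Without the 3 arrays least like the others it was 0.46 (limma adjusted p = 0.0561). Over the alternatives that kept Rras, its limma adjusted p ran from 0.00853 to 0.0671. A filter of log2 signal over 6 in at least 6 arrays left Rras out. Its young mean of 4.60 lay close to the filter of 4 used here. The impaired minus unimpaired value of Rras was 0.36 ± 0.14 (adjusted p = 0.641 by limma). Crmp1, a collapsin response mediator protein, was at -0.10 ± 0.04 with age (adjusted p = 0.235 by limma).

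Guidance genes of other families held no call in aged against young CA1. Of 19 measured, among them Slit2, Dcc, Epha5 and Ephb1, 0 rose and 0 fell by limma (median -0.04), beside 3.71% of all genes called. At an unadjusted p under 0.05 there was 1 of 19, beside 15.3% of all genes. Ephb1, an ephrin receptor, had the smallest p of the list, at 0.22 ± 0.08 (limma, Benjamini-Hochberg adjusted p = 0.188).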

How the data were processed

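Log2 signals of 23 arrays were used as deposited. The authors made them from Affymetrix rat arrays with GCRMA, which corrects background, normalizes and summarizes probes, per the submitters' processing notes; its version is not given in the sources used here. Symbols came from the platform annotation (20832 probe sets with 1 symbol, 436 with several, 9831 with none). Each gene was represented by its brightest probe set among those above a log2 signal of 4 in 6 or more arrays. A limma model (3.58.1, R 4.3.3) of the 3 group means was fitted over 9076 genes, with Benjamini-Hochberg adjustment within each comparison and a threshold of 0.05. The aged mean weighted its groups by arrays. Relations used group-centred values with 2-sided permutation within groups (100000 resamples; 20000 where 1 array was left out), in Python 3.11.15. Both procedures were tested on simulated data. The rule named every member, in each pathway list the called genes and up to 4 with the smallest p, and the 5 genes most and least like Sema3c. Members and lists were chosen with earlier results of these data known. Marker, subfield, quality and neighbour relations, relations among the relatives, the value at equal Sema3e and the motifs were added after the data were seen. Batches and dates are not given in the sources used here. Nothing says more of the replicates than that they are biological, and their number sets the precision.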

Additional observations from a re-analysis of the deposited data

Results flagged for a closer look

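A check for single arrays far from the rest of their group ran on 21 groups of arrays (7 genes in 3 groups), where chance flags about 1 in 20, or 1.05. It flagged 2. Plxna2 was at 8.13 in Young 7, against 7.76 in the next highest young array. Plxnd1 was at 5.58 in Impaired 3, against 5.40 in the next highest impaired array. Aged minus young was 0.01 for Plxna2 without Young 7, and impaired minus young was -0.01 for Plxnd1 without Impaired 3.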

How the results depend on the processing

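Sema3c kept its sign against young in every alternative run: -1.70 to -1.45 for aged, -1.81 to -1.48 for impaired and -1.60 to -1.30 for unimpaired rats. This is a description, since Sema3c was chosen by its fall in these same arrays, which the alternatives reuse. Impaired minus unimpaired ranged from -0.38 to -0.059 with 1 array left out and was 0.0084 without the 3 arrays least like the others. Under array median centring and under quantile normalization 1 relative, Plxna1, was called in aged and in impaired against young (-0.19 and -0.23, -0.19 and -0.22). Of all 9076 genes limma then called 377 and 413 in aged against young, in place of 337. In impaired against young it called 442 and 443, in place of 345. Differences near 0 changed sign in 49 of 1011 comparisons of a member under an alternative. Without the 3 arrays least like the others, impaired minus unimpaired was 0.045 for Sema3e, 0.062 for Nrp1 and 0.013 for Plxna2, Nrp1 impaired minus young was 0.019 and Plxnd1 aged minus young 0.0032. With the mean of a gene's probe sets, Plxna2 was 0.023, 0.033, 0.010 and 0.023 in aged, impaired and unimpaired against young and impaired against unimpaired. Nrp1 impaired minus unimpaired was 0.017 with array weights and 0.0018 with the 3 prime to 5 prime covariate, and Plxnd1 aged minus young was 0.00028 and 0.00063. Plxnd1 impaired minus young was -0.0076 under median centring and -0.0088 under quantile normalization. With Unimpaired 1 and 7 averaged, Nrp2 aged minus young was 0.018. With 1 array left out, aged minus young ranged from -0.094 to 0.16 for Nrp2, -0.066 to 0.013 for Plxna2 and -0.015 to 0.0023 for Plxnd1. Impaired minus young ranged from -0.084 to 0.0027 for Plxna2 and -0.015 to 0.016 for Plxnd1. Unimpaired minus young ranged from -0.066 to 0.019 for Sema3e, -0.049 to 0.019 for Nrp1 and -0.056 to 0.027 for Plxna2. Impaired minus unimpaired ranged from -0.087 to 0.014 for Nrp1 and -0.055 to 0.0035 for Plxna2. The r of Plxna2 with Sema3c was -0.20 under median centring and -0.072 without the 3 arrays, and ranged from -0.037 to 0.27 with 1 array left out; that of Plxnd1 was 0.0087 with quality measures removed. The r of Nrp1 with Sema3c was 0.503 without the 3 arrays and 0.467 with its other probe set. The cause of these changes was not tested. The labels do not say whether replicate numbers pair the samples, and no pairing was seen. The median correlation of same-numbered deviations was -0.05, and 1 of 22 arrays correlated best with its own number. These values cannot show that no pairing exists. With a replicate block, Sema3c aged minus young was -1.53 and impaired minus unimpaired -0.19, 0 relatives were called, Plxna2 impaired minus unimpaired was 0.018, and 159 genes were called in aged against young in place of 337. Pcsk6 (adjusted p = 0.0883 and 0.121 in aged and impaired against young) and Rras (0.0671) lost their calls by limma under the replicate block. Pcsk6 in impaired against young also lost its call with no filter (0.0709) and with array weights (0.0578). Other probe sets of Sema3c could not be tried, since it has 1. The alternatives without the 3 arrays, with the averaged pair, with quality measures removed and with other probe sets were chosen after seeing the data. Dim probe sets for Sema3a and Sema3f and the flat Plxnd1 signal limit what the array can show of these genes.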
